A study of Mus musculus with 2 samples.

Results

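Egfr encodes the receptor for epidermal growth factor, and the Egfr-high cells described here are the 250 barcodes with the highest share of Egfr transcripts among 3044 barcodes that passed the filters, out of 4000 in the deposited table. The material was primary neurospheres, floating colonies grown from dissociated lateral ventricle walls of the embryonic forebrain of CD1 mice. Dissociated cells were plated at up to 40 cells per microlitre, without serum, and grew for 7 to 10 days in 10 ng/mL of the cytokine LIF (leukemia inhibitory factor), and the protocol names a further additive, EFH, without spelling it out. The labels list 2 samples of this kind, pNSCs1 and pNSCs2, but nothing assigns a barcode to either, so the table is 1 pooled sample with no replicate, no treatment contrast and no test. Drop-seq tags each captured molecule with a unique molecular identifier (UMI), and the barcodes are called cells, although the series text speaks of nuclei.

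EGFR is a receptor tyrosine kinase. On binding ligands such as EGF, TGFα or HB-EGF it recruits adaptors and activates the RAS, RAF, MEK and ERK cascade, which in turn induces its own inhibitors, among them the Sprouty and DUSP proteins. In the ventricular and subventricular zones of the mouse, high EGFR is known from progenitors that have left quiescence and from late embryonic, EGF-responsive progenitors, whereas the earlier primitive neural stem cells are known as LIF-dependent.

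The cells were chosen by their measured Egfr UMIs, among barcodes with at least 500 genes, at most 10% mitochondrial UMIs, Malat1 under 2% of UMIs and at least 2000 UMIs. These were ranked by Egfr UMIs over total UMIs, with ties given to the deeper cell. Egfr (chromosome 11, 16752203 to 16918158, mm10) therefore defines them and is not a result. Egfr-high cells carried 1 to 11 Egfr UMIs each with a median of 2, against 1 to 9 in the 1150 other Egfr-positive cells and 0 in the 1644 Egfr-0 cells. Within the Egfr-high cells 32 had 1 Egfr UMI, 109 had 2 and 109 had 3 or more. Their Egfr level ran from 443 to 3148 UMIs per 1000000 (CPM), with a median of 575 CPM. The last member had 1 Egfr UMI of 2258, or 443 CPM, and the first cell outside had 3 of 6782, or 442 CPM.

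**Figure D1:**
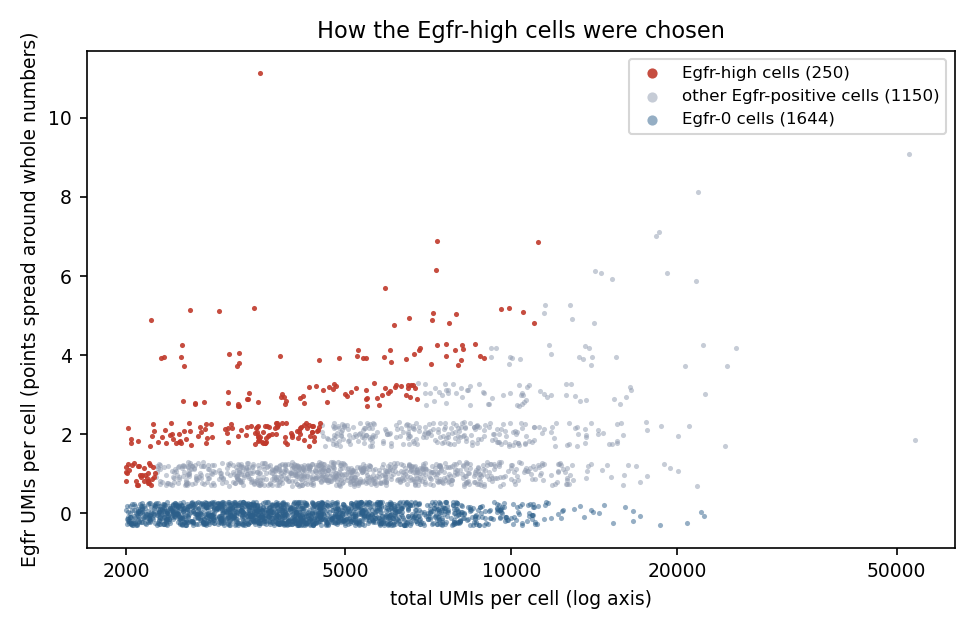
Egfr UMIs per cell against total UMIs per cell on a log axis, 1 point per kept cell, with points spread around whole numbers. Red points are the 250 Egfr-high cells, grey points the 1150 other Egfr-positive cells and blue points the 1644 Egfr-0 cells; members with 1 Egfr UMI all had 2258 total UMIs or fewer.

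Counts this low leave the sets blurred. A cell at the overall Egfr level of 141 CPM would be expected to yield 0.562 UMIs at 3991.5 UMIs, the median depth of the Egfr-0 cells, so 0 UMIs does not show that a cell lacked the transcript. Depth differed as well. The median was 3595 UMIs (2001 to 11196) in Egfr-high cells, 5759 (2267 to 54060) in other Egfr-positive cells and 3991.5 (2000 to 22347) in Egfr-0 cells. Every cell was therefore thinned at random to 2000 UMIs, and levels below are CPM of those thinned counts unless stated otherwise, from 500000 UMIs in Egfr-high, 2300000 in other Egfr-positive and 3288000 in Egfr-0 cells. Intervals are 95% and exact (Poisson for levels, conditional binomial for ratios, binomial for shares of cells). Those of levels and ratios cover counting error only, not the spread between cells or cultures. Those of shares take the cell as the unit and do not cover the spread between cultures.

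The label of progenitor was checked against marker levels. Radial glia and neural stem cell markers summed to 16448 CPM (16094 to 16807) in Egfr-high cells, against 16219 CPM (16081 to 16357) in Egfr-0 cells. Fabp7, which binds fatty acids in radial glia, was at 7044 CPM in Egfr-high cells, against 7090 CPM in Egfr-0 cells. The filament gene Vim was at 3452 CPM in Egfr-high cells and 3509 CPM in Egfr-0 cells. The stem cell factor gene Sox2 was at 446 CPM in Egfr-high cells, against 460 CPM in Egfr-0 cells. These levels differed by little between the sets. The microglia or macrophage list had 0 UMIs in Egfr-high cells, which allows up to 7.38 CPM. The endothelial list had 1 UMI, the mural or fibroblast list 4 and the ependymal or choroid plexus list 16 UMIs, and Pecam1, Cldn5, Cx3cr1, Col3a1 and Ttr were at 0 in both sets.

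Among the lists with counted genes, those of the cell cycle had the ratios farthest from 1, and they were lower in Egfr-high cells. S phase list genes summed to 3250 CPM (3094 to 3412) in Egfr-high cells, against 4205 CPM (4135 to 4276) in Egfr-0 cells, a ratio of 0.773 (0.734 to 0.814). G2 and M phase genes summed to 7086 CPM (6855 to 7323) in Egfr-high cells, against 8872 CPM (8770 to 8974) in Egfr-0 cells, a ratio of 0.799 (0.771 to 0.827). A gene was counted as past the fold where its ratio was at most 0.8 with its interval below 1, or at least the inverse of 0.8 with its interval above 1, among genes with at least 100 UMIs over both sets. Of 5857 such genes, 225 (3.84%) were past it on the higher side and 267 (4.56%) on the lower side, with a median ratio of 0.996. On the lower side stood 13 of 38 counted S phase genes and 22 of 51 counted G2 and M phase genes, and none of either list stood on the higher side. The median ratio was 0.771 over the S phase genes and 0.773 over the G2 and M genes. In other Egfr-positive cells the S phase list summed to 4038 CPM and the G2 and M list to 9275 CPM. The G2 and M sum thus did not fall in order with Egfr.

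Among mitotic genes, Cdc20, an activator of the anaphase-promoting complex, was at 160 CPM in Egfr-high cells, 260.4 CPM in other Egfr-positive cells and 265 CPM in Egfr-0 cells, a ratio of 0.604 (0.474 to 0.760). Birc5, the survivin subunit of the chromosomal passenger complex, was at 136 CPM in Egfr-high cells, 234 CPM in other Egfr-positive cells and 242 CPM in Egfr-0 cells (0.562, 0.432 to 0.720). Cenpe, a kinetochore motor, was at 76 CPM in Egfr-high cells, 149 CPM in other Egfr-positive cells and 147 CPM in Egfr-0 cells (0.516, 0.361 to 0.719). In these genes the Egfr-high cells stood below both other sets. Cdk1, the mitotic kinase, had a ratio of 0.689 (0.550 to 0.853). Ube2c, the ubiquitin-conjugating enzyme of mitotic exit, had a ratio of 0.767 (0.621 to 0.940). It was at 210 CPM in Egfr-high, 367 CPM in other Egfr-positive and 274 CPM in Egfr-0 cells. Cyclin A2 (Ccna2), which is on neither list, was at 90 CPM in Egfr-high cells, against 158 CPM in Egfr-0 cells (0.570, 0.411 to 0.774).

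Replication genes were lower as well. The ribonucleotide reductase subunit gene Rrm2 was at 188 CPM in Egfr-high cells, against 285 CPM in Egfr-0 cells (0.660, 0.528 to 0.816). Pcna, the sliding clamp of DNA polymerase, was at 198 CPM in Egfr-high cells, against 254 CPM in Egfr-0 cells (0.779, 0.626 to 0.960). The recombination gene Rad51ap1 had 7 UMIs in Egfr-high cells and 152 in Egfr-0 cells (0.303, 0.120 to 0.639), and 0.840 among cells with at least 4000 UMIs. Hist1h2al, an H2A histone copy typed as a processed pseudogene in the annotation, so that its count is uncertain, had a ratio of 0.632 (0.509 to 0.779). The D-type cyclins, which act before S phase, did not follow. Ccnd1 was at 2514 CPM in Egfr-high cells, against 2352 CPM in Egfr-0 cells (1.07, 1.01 to 1.13). Within the cell cycle tertiles defined below, from lowest to highest, Ccnd1 was at 2699, 2397 and 1956 CPM in Egfr-0 cells. The Ccnd1 ratios there were 1.04 (0.956 to 1.13), 1.09 (0.975 to 1.22) and 0.863 (0.737 to 1.01). The related gene Ccnd2 was at 1566 CPM in Egfr-high cells, against 1487 CPM in Egfr-0 cells (1.05, 0.976 to 1.14). The inhibitor gene Cdkn1a (p21) was at 962 CPM in Egfr-high cells, against 935 CPM in Egfr-0 cells, and 0 of 6 CDK inhibitor genes was past the fold in either direction. These 6 had a summed ratio of 0.984 (0.905 to 1.07), but a median ratio of 0.882 and a mean of 0.848, so Cdkn1a does not stand for the others.

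Promoters of 3 of the lower mitotic genes are shown because many genes of mitosis are repressed outside G2 and M through a cell cycle homology region, TTTGAA, near the start site. Each runs from 250 bases before to 50 after the start (RefSeq, GRCm38.p6, gene strand, 5′ to 3′), and capitals mark TTTGAA or its reverse complement TTCAAA.
Cdk1 (chr10:69352863-69353162, minus strand): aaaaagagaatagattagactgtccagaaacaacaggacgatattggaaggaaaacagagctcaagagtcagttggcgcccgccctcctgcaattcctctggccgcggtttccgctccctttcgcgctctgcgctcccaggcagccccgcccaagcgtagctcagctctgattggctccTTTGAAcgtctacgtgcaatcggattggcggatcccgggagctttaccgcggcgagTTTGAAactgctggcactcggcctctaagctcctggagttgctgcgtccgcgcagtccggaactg
Cdc20 (chr4:118437294-118437593, minus strand): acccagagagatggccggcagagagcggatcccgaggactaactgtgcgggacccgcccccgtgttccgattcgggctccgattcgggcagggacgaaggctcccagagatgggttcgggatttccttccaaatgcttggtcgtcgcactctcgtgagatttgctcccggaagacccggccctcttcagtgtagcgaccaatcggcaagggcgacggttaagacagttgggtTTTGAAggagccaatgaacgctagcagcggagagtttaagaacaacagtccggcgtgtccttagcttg
Ube2c (chr2:164769679-164769978, plus strand): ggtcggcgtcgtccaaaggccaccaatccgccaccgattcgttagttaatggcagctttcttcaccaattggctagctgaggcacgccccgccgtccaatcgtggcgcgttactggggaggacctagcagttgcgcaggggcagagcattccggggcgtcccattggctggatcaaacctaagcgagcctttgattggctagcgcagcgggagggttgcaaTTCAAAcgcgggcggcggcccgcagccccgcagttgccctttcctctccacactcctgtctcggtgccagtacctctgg

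The Cdk1 promoter held 2 matches and those of Cdc20 and Ube2c 1 each, searched on both strands; these were picked for holding one, and the promoter of Nusap1, also a lower G2 and M gene, held 0. Of the 22 lower G2 and M genes 21 matched a promoter entry, and 15 of them (71.4%) held the motif. Among counted G2 and M genes that were not past the fold 18 of 24 (75%) held it, against 5878 of 32851 promoters overall (17.9%). A match is a description of the letters only and was no measure of binding.

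The same sum was read per cell. Out of 2000 UMIs, S plus G2 and M list genes supplied a median of 13 UMIs (2 to 82) in Egfr-high cells, 24 (1 to 94) in other Egfr-positive cells and 25 (0 to 83) in Egfr-0 cells. The ranges overlapped. All kept cells were divided into tertiles by this sum (0 to 13, 14 to 34 and 35 to 94 UMIs), which are ranges and not cell types. The lowest tertile held 127 of the 250 Egfr-high cells (50.8%, 44.4 to 57.2), against 33.3% (30.6 to 36.1) of other Egfr-positive and 33.9% (31.7 to 36.3) of Egfr-0 cells. The highest tertile held 21.2% (16.3 to 26.8) of Egfr-high cells, against 32.2% (29.5 to 35.0) of other Egfr-positive and 33.3% (31.1 to 35.7) of Egfr-0 cells. Egfr-high cells were thus found in every tertile, and the other Egfr-positive cells lay nearer to the Egfr-0 cells than to the Egfr-high cells in these measures.

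**Figure D2:**
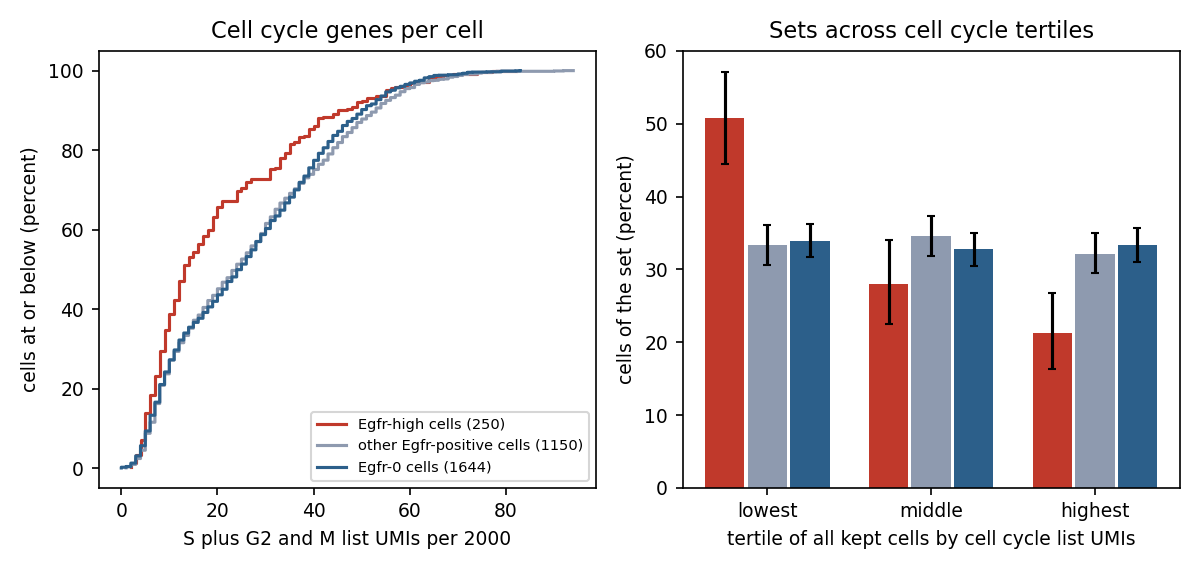
Left, the cumulative percent of cells by S plus G2 and M list UMIs out of 2000; right, the percent of each set in each tertile of that sum, with exact binomial 95% intervals. The Egfr-high cells (red) sit to the left of both other sets and 50.8% of them are in the lowest tertile.

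Cells of the lowest tertile were also shallower, with a median of 3998 UMIs before thinning against 5387 in the highest, and a share of UMIs reaches a high value more easily in a shallow cell. With the Egfr-0 cells weighted to the depth of the Egfr-high cells, the S phase ratio was 0.785 and the G2 and M ratio 0.817. Among cells with at least 4000 UMIs, thinned to 4000, the S phase ratio was 0.887 and the G2 and M ratio 0.776; there 99 of the 250 members were the same cells. With the 109 members that had at least 3 Egfr UMIs, they were 0.855 and 0.798.

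Genes of the receptor's own pathway differed little. ERK feedback and target genes summed to 3988 CPM (3815 to 4167) in Egfr-high cells, against 3719 CPM (3653 to 3785) in Egfr-0 cells, a ratio of 1.07 (1.02 to 1.12). Of its 13 counted genes 1 was past the fold on the higher side, near the background share, and their median ratio was 1.08. That gene was Etv5, an ETS factor induced by ERK, at 104 CPM in Egfr-high cells, 67.4 CPM in other Egfr-positive cells and 64.2 CPM in Egfr-0 cells (1.62, 1.17 to 2.20). In a second random thinning its ratio was 1.33. Spry2, a Sprouty inhibitor of the cascade, was at 278 CPM in Egfr-high cells, against 258 CPM in Egfr-0 cells (1.08, 0.893 to 1.29). The ERK phosphatase gene Dusp6 was at 224 CPM in Egfr-high cells, against 199 CPM in Egfr-0 cells (1.13, 0.915 to 1.38). Myc was at 162 CPM in Egfr-high cells, against 136 CPM in Egfr-0 cells (1.19, 0.927 to 1.51).

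Upstream of these, 0 of 9 counted RAS, RAF, MEK and ERK genes and 0 of 6 counted adaptor and trafficking genes were past the fold. The cascade list had a ratio of 0.935 (0.850 to 1.03) and the adaptor and trafficking list 1.09 (0.954 to 1.249). The adaptor gene Grb2 was at 146 CPM in Egfr-high cells, against 116 CPM in Egfr-0 cells (1.26, 0.970 to 1.63). Lrig1, which promotes degradation of EGFR, was at 72 CPM in Egfr-high cells, against 50.8 CPM in Egfr-0 cells (1.42, 0.960 to 2.04). Immediate early genes summed to a ratio of 1.08 (0.982 to 1.19), with Fos and Ier2, of 6 counted, on the higher side, against 3.84% of all counted genes. Ier2 was at 0.916 among cells with at least 4000 UMIs.

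Of the ligands, Hbegf was the single one with enough UMIs to be counted. It was at 198 CPM in Egfr-high cells, against 229 CPM in Egfr-0 cells (0.865, 0.694 to 1.07). Within the lowest cell cycle tertile Hbegf was at 303 CPM in Egfr-high cells and 272 CPM in Egfr-0 cells (1.11, 0.855 to 1.43). In the middle tertile it was at 114 CPM in Egfr-high cells, against 249 CPM in Egfr-0 cells (0.459, 0.259 to 0.759). In the highest tertile it was at 56.6 CPM in Egfr-high cells, against 165 CPM in Egfr-0 cells (0.343, 0.124 to 0.761). The Hbegf ratio was thus below 1 in the middle and highest tertiles and not in the lowest. Hbegf UMIs were found in 47 of the 250 Egfr-high cells, with up to 10 in a single cell. The intervals do not cover such spread between cells, and the difference between tertiles was not tested. Egf, Tgfa, Btc, Epgn and Ereg had 0 UMIs in the thinned Egfr-high cells and at most 6 in Egfr-0 cells. The partner receptor genes Erbb2, Erbb3 and Erbb4 had 7, 0 and 3 UMIs in Egfr-high cells, against 18, 1 and 24 in Egfr-0 cells, too few to compare.

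**Figure D3:**
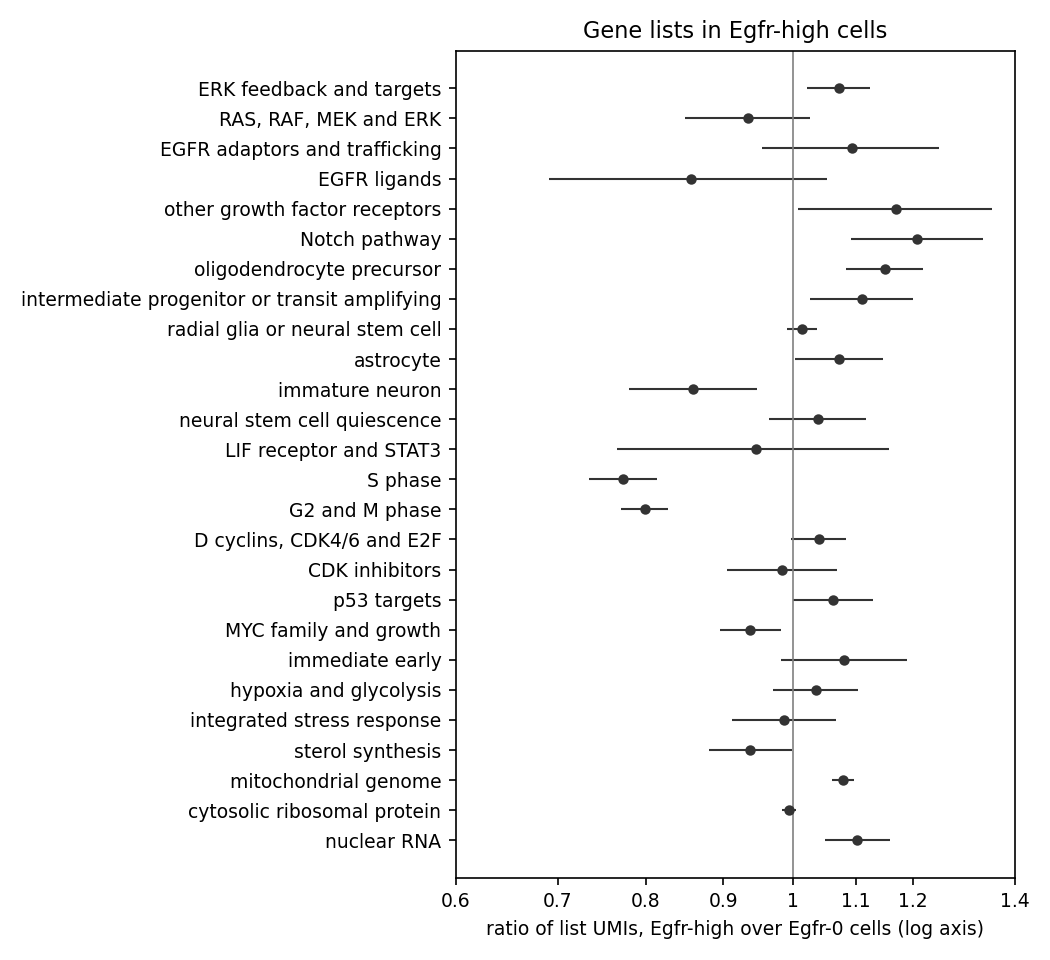
Ratio of the summed UMIs of 26 gene lists in Egfr-high cells over Egfr-0 cells at 2000 UMIs per cell, on a log axis, with exact conditional 95% intervals for counting error. The S phase (0.773) and G2 and M phase (0.799) lists lie farthest below 1 and the Notch list (1.21) farthest above it among the lists drawn. Lists with no counted gene are left out. Also not drawn are the PI3K and mTOR, matrix and proteoglycan, sonic hedgehog and WNT, ventral forebrain, dorsal forebrain and dissociation heat shock lists, with ratios from 1.005 to 1.15.

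Notch signalling lets neighbouring progenitors hold each other undifferentiated through Hes transcription factors. The list summed to 938 CPM (855 to 1027) in Egfr-high cells, against 776 CPM (747 to 807) in Egfr-0 cells, a ratio of 1.21 (1.09 to 1.33). Of its 7 counted genes 1 was past the fold on the higher side, against 3.84% of all counted genes, and a count this small says little about the list. The target gene Hes1 was at 286 CPM in Egfr-high cells, 215 CPM in other Egfr-positive cells and 209 CPM in Egfr-0 cells (1.37, 1.14 to 1.64). Its ratio was 1.44 in the lowest cell cycle tertile, 1.66 in the middle and 0.894 (0.543 to 1.397) in the highest. Hes5, also a Notch target, was at 80 CPM in Egfr-high cells, against 60.8 CPM in Egfr-0 cells (1.32, 0.912 to 1.85), and its ratio ran from 0.707 to 1.97 over the alternatives. The receptor genes Notch1 and Notch3 had ratios of 1.28 (0.869 to 1.84) and 1.996 (1.09 to 3.49), with 17 Notch3 UMIs in Egfr-high cells. The Delta ligand genes had ratios of 1.28 (0.782 to 2.02) for Dll1 and 0.752 (0.448 to 1.197) for Dll3. Maml2, a co-activator of Notch transcription that was not on the list, was at 64 CPM in Egfr-high cells, 37.0 CPM in other Egfr-positive cells and 31.9 CPM in Egfr-0 cells (2.004, 1.30 to 3.002).

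Lineage genes were examined next. Oligodendrocyte precursor genes summed to 2652 CPM (2511 to 2799) in Egfr-high cells, against 2307 CPM (2255 to 2359) in Egfr-0 cells, a ratio of 1.15 (1.08 to 1.22), with 0 of 7 counted genes past the fold. Most of this was Olig1, at 1552 CPM in Egfr-high cells, against 1321 CPM in Egfr-0 cells (1.18, 1.09 to 1.27). In Egfr-0 cells the list was at 2830 CPM in the lowest cell cycle tertile, 2366 CPM in the middle and 1715 CPM in the highest. Its ratios within those tertiles were 1.11 (1.02 to 1.20), 0.981 (0.871 to 1.10) and 1.13 (0.971 to 1.30). The committed precursor genes Pdgfra and Sox10 had 1 and 2 UMIs in Egfr-high cells. Intermediate progenitor genes summed to 1510 CPM in Egfr-high cells, 1156 CPM in other Egfr-positive cells and 1360 CPM in Egfr-0 cells, so the sum did not rise in order with Egfr. Of 8 counted genes, 2 were on the higher side, among them Hes6, against 3.84% of all counted genes. On the lower side was 1, Gadd45g, against 4.56% of all counted genes. Hes6, an inhibitor of Hes1, was at 212 CPM in Egfr-high cells, 148 CPM in other Egfr-positive cells and 141 CPM in Egfr-0 cells (1.502, 1.205 to 1.86).

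Immature neuron genes summed to 944 CPM (861 to 1033) in Egfr-high cells, against 1098 CPM (1062 to 1134) in Egfr-0 cells, a ratio of 0.860 (0.779 to 0.947). Of 4 counted genes 1 was past the fold on the lower side, against 4.56% of all counted genes. It was Gap43, a growth cone protein, at 436 CPM in Egfr-high cells, against 546 CPM in Egfr-0 cells (0.799, 0.691 to 0.920). Map2, a dendritic microtubule protein gene with 186 of the 472 list UMIs in Egfr-high cells, was at 372 CPM there, against 340 CPM in Egfr-0 cells (1.09, 0.932 to 1.28). Stmn2 and Tubb3, of neuronal microtubules, had 1 and 2 UMIs of 500000 in Egfr-high cells, against 52 and 44 of 3288000 in Egfr-0 cells. Their ratios are not given, as they would rest on 1 and 2 UMIs. Cells with 10 or more UMIs of the list out of 2000, a limit set after the values were seen, were 2 of 250 Egfr-high cells (0.8%, 0.0970 to 2.86), 4 of 1150 other Egfr-positive cells and 26 of 1644 Egfr-0 cells (1.58%, 1.04 to 2.31). Of the 32 such cells 81.2% had 0 Egfr UMIs, against 54.0% of all kept cells. The astrocyte list had 1 of 8 counted genes (Aldoc) past the fold on the higher side, against 3.84% of all counted genes. Its median ratio was 0.997 and its summed ratio 1.07 (1.004 to 1.15), which was 0.985 with cell cycle tertiles weighted alike.

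Single genes outside the lists rested on few UMIs, and thinning alone moved many across the fold: 87 of the 225 higher and 102 of the 267 lower genes were past it again in a second random thinning. The 15 with the highest ratios ran from 1.95 to 2.30 and were Gtf3c1, Inppl1, Eif2d, Ndrg2, Abcf3, Med13, Adora1, Adcyap1r1, Aldh2, Acss1, Maml2, Jarid2, Mau2, Zfp608 and Adam17, with 24 to 48 UMIs in Egfr-high cells. The 15 with the lowest ratios ran from 0.166 to 0.420 and included Pknox1, Rad51ap1, Terf2, Cks2, Ndc80, Rgs19, Tbl3, Pold1, Bre, Myh7, Pigt, Bckdhb and Plekha3, with 3 to 13 UMIs there. The limit of 100 UMIs was on the sum over both sets, so a gene near it could pass through its excess in Egfr-high cells. Among the highest ratios, Adora1 had 101 such UMIs and Jarid2 103. A narrower set, chosen after the values were seen, was past the fold in both thinnings and by the mean share per cell. That share uses all UMIs and weights cells equally. The narrower set held 73 higher and 87 lower genes, from the same cells and so no independent check. Among cells with at least 4000 UMIs, 25 of the 73 and 45 of the 87 were past the fold. With members that had at least 3 Egfr UMIs the counts were 31 and 34, and with 100 members 39 and 41. With the Egfr-0 cells weighted to the depth of the Egfr-high cells they were 61 and 75. Of the lower 87, 24 were on the S or G2 and M lists, which held 89 of the 5857 counted genes. Of the higher 73, 0 were, which is near that share and was not read as a result.

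Of the 73, Ttyh1, Mxd4 and Dbx2 below were picked after their values were seen. Ndrg2, a stress-responsive gene of astrocytes, was at 90 CPM in Egfr-high cells, 42.2 CPM in other Egfr-positive cells and 41.7 CPM in Egfr-0 cells (2.16, 1.51 to 3.05). Ttyh1, a membrane protein of neural stem cells and astroglia, was at 218 CPM in Egfr-high cells, 144 CPM in other Egfr-positive cells and 134 CPM in Egfr-0 cells (1.63, 1.31 to 2.01). In these genes the Egfr-high cells stood above both other sets, which lay together. Adcyap1r1, the PACAP receptor of neural progenitors, was at 96 CPM in Egfr-high cells, 53.9 CPM in other Egfr-positive cells and 47.1 CPM in Egfr-0 cells (2.04, 1.44 to 2.83). Mxd4, a MAX partner that opposes MYC, was at 228 CPM in Egfr-high cells, 126 CPM in other Egfr-positive cells and 134 CPM in Egfr-0 cells (1.70, 1.37 to 2.10). The syndecan gene Sdc3 had a ratio of 1.45 (1.07 to 1.94) and the homeobox gene Dbx2 1.79 (1.28 to 2.45). On the lower side outside the cell cycle, Id2, an inhibitor of bHLH factors, was at 140 CPM in Egfr-high cells, 133 CPM in other Egfr-positive cells and 202 CPM in Egfr-0 cells (0.694, 0.535 to 0.889).

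**Figure D4:**
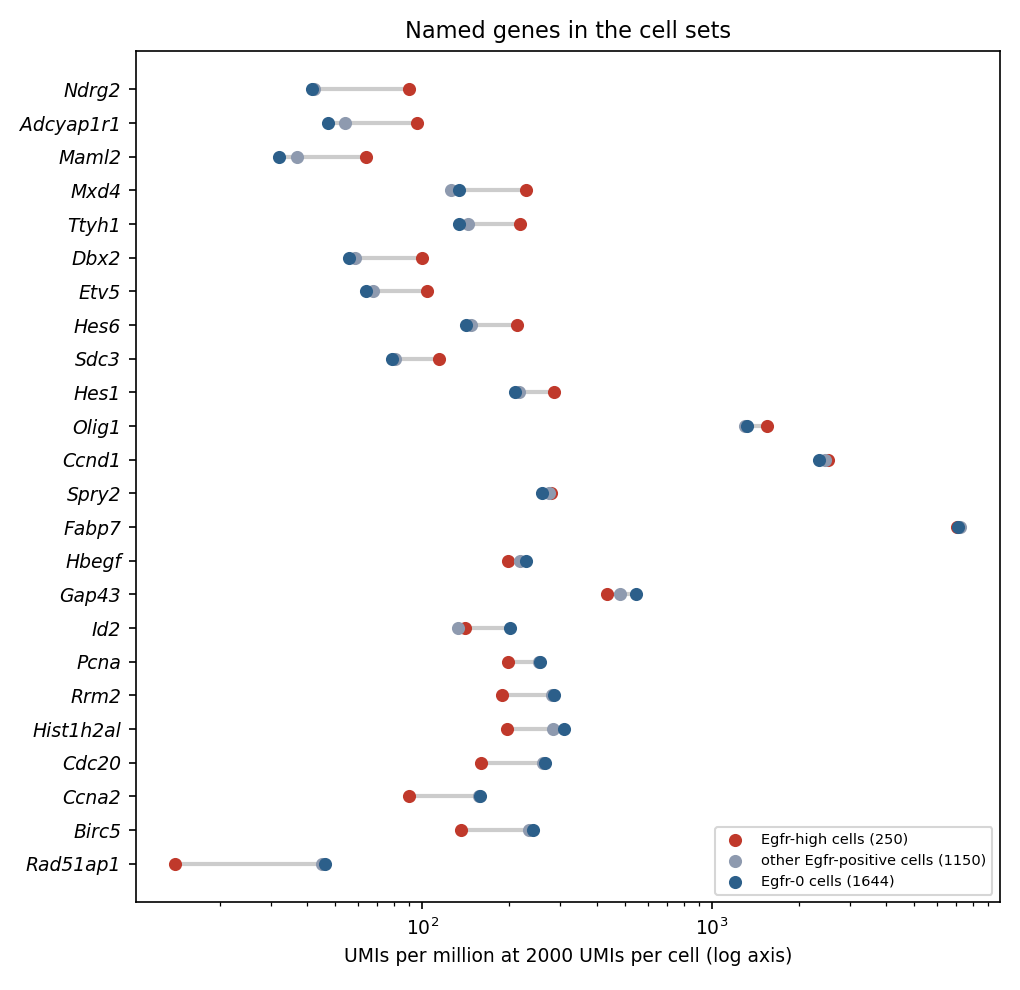
Level of 24 named genes in UMIs per 1000000 at 2000 UMIs per cell, on a log axis, in Egfr-high (red), other Egfr-positive (grey) and Egfr-0 cells (blue). For most genes the grey and blue points lie together and the red point apart, as for Ndrg2 at 90, 42.2 and 41.7 CPM.

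The sets were compared within tertiles. Ndrg2 had ratios of 1.83 (1.12 to 2.90), 2.35 (1.08 to 4.72) and 2.01 (0.755 to 4.58) in the lowest, middle and highest tertile. It was above 1 in each tertile, with the widest interval in the highest, which held 53 Egfr-high cells. Mxd4 was above 1 in the lowest and middle tertiles, at 1.34 and 1.75, and at 0.907 in the highest. With the Egfr-0 cells weighted to the tertiles of the Egfr-high cells, 51 of the 73 higher and 32 of the 87 lower genes were still past the fold. The Notch list had ratios of 1.14 (0.987 to 1.31), 1.27 (1.05 to 1.53) and 1.098 (0.864 to 1.38), and the immature neuron list 0.729, 0.827 and 1.004. The ERK feedback list had 1.07 (1.01 to 1.15), 1.04 (0.951 to 1.14) and 0.850 (0.751 to 0.960), below 1 in the highest tertile.

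**Figure D5:**
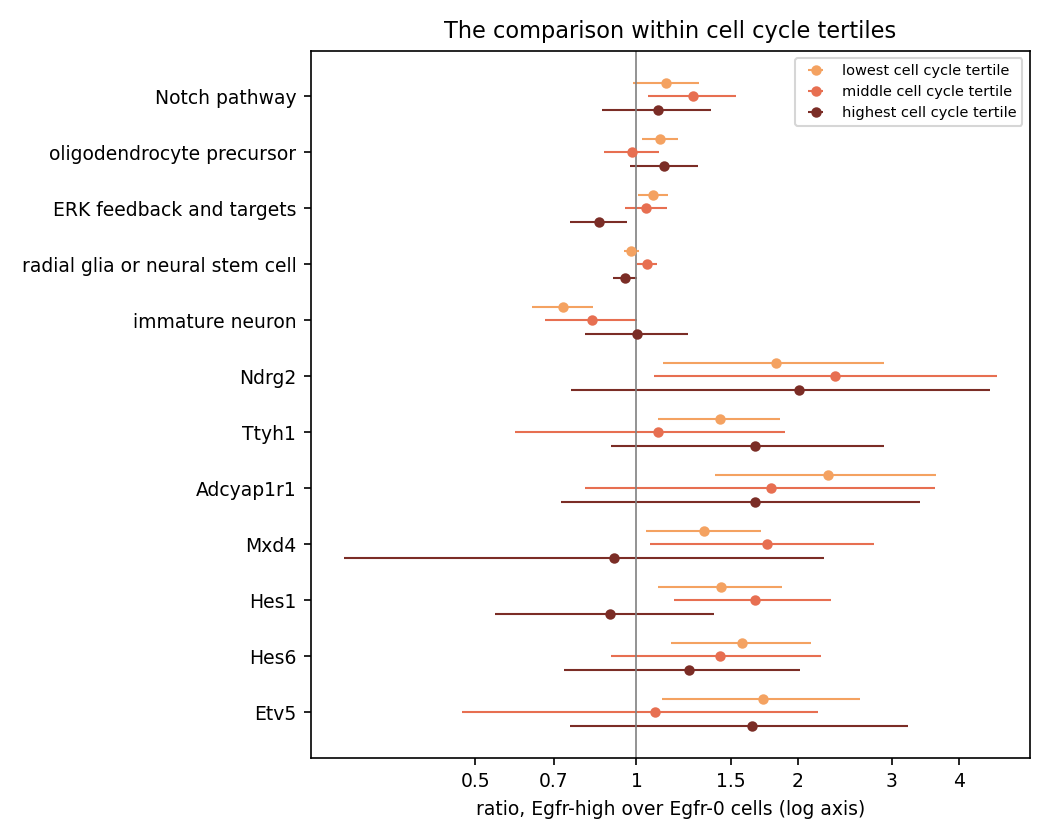
Ratio in Egfr-high over Egfr-0 cells within each cell cycle tertile, on a log axis, for 5 gene lists and 7 genes, with exact conditional 95% intervals; the tertiles run from lowest (top of each group of points) to highest. Ndrg2 lies above 1 in each tertile, and Hes1 and Mxd4 do so in the lowest and middle.

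Library measures differed by little between the whole sets and by more in the highest cell cycle tertile. The mitochondrial genome supplied 33080 CPM in Egfr-high cells, against 30660 CPM in Egfr-0 cells (1.08, 1.06 to 1.097), and its ratio was 1.16 in the highest cell cycle tertile. Malat1, a nuclear RNA, was at 3166 CPM in Egfr-high cells, against 2849 CPM in Egfr-0 cells (1.11, 1.05 to 1.17). Ribosomal protein genes had a ratio of 0.994. In the highest tertile the ratios were 1.21 (1.08 to 1.36) for Malat1 and 0.927 (0.905 to 0.949) for ribosomal protein genes. Xist, expressed from the inactive X chromosome of females, was at 586 CPM in Egfr-high cells, against 539 CPM in Egfr-0 cells (1.09, 0.958 to 1.23). Cells with Xist and no UMI of 4 Y-linked genes were 59.6% of Egfr-high and 58.1% of Egfr-0 cells. The part of these measures in the gene ratios was not tested.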

How the data were processed

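Raw UMI counts per gene and barcode were deposited by the authors as 1 whole-number table of 19144 genes and 4000 barcodes, on build mm10, which the submitters' processing notes name. For the program that aligned and counted reads, the sources used here give no name. Of the barcodes, 956 failed the filters (132 under the gene minimum, 148 over the mitochondrial limit, 254 with Malat1 at or over 2%, 938 under 2000 UMIs, with overlaps). Barcodes ending in an unread base were 20 of 250 Egfr-high and 108 of 1644 Egfr-0 cells. No pair of Egfr-high barcodes differed by 1 base. Among all kept barcodes 12 pairs did, and how many of them held an Egfr-high barcode was not counted. No doublet caller was run and no doublets were removed. Of the kept cells 52 had over 15000 UMIs, 0 of them Egfr-high. UMIs of both Xist and a Y-linked gene were in 10 of 250 Egfr-high, 76 of 1150 other Egfr-positive and 65 of 1644 Egfr-0 cells.

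Cells were thinned without replacement (numpy 2.4.6, Python 3.11.15, scipy 1.17.1, pandas 2.3.3, matplotlib 3.10.9), and Egfr was left out of every result. In weighted comparisons the intervals use effective counts and are approximate. UMI counts come from a pooled table, so no p-value was computed. Intervals of shares count cells within that table, and no cell stands for a replicate culture. The members and lists were chosen with earlier results of these data known. Named genes were those of the EGFR, adaptor and ERK lists with at least 100 UMIs, up to 6 per other list, and the 15 highest and 15 lowest ratios past the fold; Ccna2, Hist1h2al, Ttyh1, Mxd4, Dbx2 and genes named with under 100 UMIs were chosen after their values were seen. Gene positions are those of GENCODE M21 on the same build. Results for some genes that this rule would name are not reported here.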

Additional observations from a re-analysis of the deposited data

How the results depend on the processing

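All 250 Egfr-high cells come from a single pooled table, so the spread between cultures is unknown. No paired analysis was possible because the table does not map barcodes to samples. Over 14 alternatives on cells and depth, the G2 and M phase ratio stayed between 0.758 and 0.840 and the S phase ratio between 0.703 and 0.887. The G2 and M ratio was 0.758 without thinning and 0.840 with 100 members. The S phase ratio was 0.841 with 500 members, 0.887 among cells with at least 4000 UMIs, and, in alternatives added after the data were seen, 0.855 for members with at least 3 Egfr UMIs and 0.703 for cells with Xist and no Y-linked UMI. The ERK list ratio stayed between 1.03 and 1.12 over 16 alternatives. The count of higher genes, 225, became 377 without thinning, 147 at a gene minimum of 200 UMIs, 389 with no filter on genes, 114 at a fold of 1.5 and 21 where the whole interval had to lie past the fold. The count of lower genes, 267, became 150 at that fold and 25 under that stricter rule. It was 149 with cell cycle tertiles weighted alike, 146 with depth and tertiles weighted together and 168 for members with at least 3 Egfr UMIs, the last 2 settings added after the data were seen. Directions turned for the astrocyte list (0.985 with tertiles weighted, 0.978 with depth and tertiles weighted, 0.939 in Xist-only cells) and Aldoc there (0.995), for Ier2 (0.916) and Gadd45g (1.01) among cells with at least 4000 UMIs, and for Ube2c with at least 3 Egfr UMIs (1.02); the cause was not tested. Of genes not past the fold, Hes5 was at 0.756 among cells with at least 4000 UMIs and 0.707 in Xist-only cells, Dll1 at 0.792 and Hbegf at 0.968 in a second thinning, and Hbegf at 1.01 among cells with at least 4000 UMIs. Cdkn1a ran from 0.904 to 1.10, Spry2 from 0.932 to 1.20, Grb2 from 0.998 to 1.36, Dll3 from 0.671 to 1.03 and Ccnd2 from 0.974 to 1.11, and Fabp7, Sox2, Vim and Xist crossed 1 as well. Rad51ap1 ran from 0.288 to 0.840. Among cells with at least 4000 UMIs the leading single genes moved toward 1, as for Jarid2 (1.08), Zfp608 (1.17), Bre (0.991) and Tbl3 (0.921). Counts of single genes are limited by depth, at 24 to 48 UMIs for the leading ratios.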
